A study of Homo sapiens with 18 samples.

Results

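The genes described here are 9 chemokines, CCL2, CCL5, CCL28, CXCL1, CXCL2, CXCL10, CXCL12, CXCL16 and CX3CL1, and 1 chemokine receptor, CXCR4. They are 10 of the 63677 gene identifiers measured, were listed by symbol and were found through their Ensembl identifiers. The list was selected on measured values, above all the rise of CCL2 in SKNAS Hmx1 tumours, so every member's difference between Hmx1 and control within SKNAS is given as a description without a test. Polyadenylated RNA was sequenced from 18 xenograft tumours, that is, tumours grown in mice from the human neuroblastoma cell lines SKNAS, LAN-1 and KELLY. Each line gave 3 libraries of an arm named Hmx1, after a homeobox transcription factor, and 3 libraries of a control arm. All 6 groups, SKNAS Hmx1, SKNAS control, LAN-1 Hmx1, LAN-1 control, KELLY Hmx1 and KELLY control, were collected as whole tumours with no other treatment named. Whether the Hmx1 arm had more or less of the factor, how its cells were made, the age and strain of the mice and whether replicate libraries came from separate animals are not stated. The p-values below therefore measure the spread between libraries, which may be technical.

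Chemokines are small secreted proteins that attract cells bearing the matching G protein-coupled receptor. CCL2 draws monocytes through CCR2, CXCL1 and CXCL2 draw neutrophils through CXCR2, CXCL10 draws activated T cells through CXCR3, and CXCL12 binds CXCR4 and the scavenging receptor ACKR3. CXCL16 and CX3CL1 are made as membrane proteins and released by proteases, and several ligand genes are switched on by the transcription factor NF-kappaB. In neuroblastoma, tumour-derived CCL2 and the CXCL12 and CXCR4 pair have been studied for the recruitment of leukocytes and for spread to bone marrow.

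Promoter sequence is shown for CXCL1, CXCL2 and CXCL10, since these are the members whose promoter held a match to the NF-kappaB consensus among the 6 members with an entry in the RefSeq promoter table for GRCh38.p14. Each line gives the 250 bases before the gene's start, 5′ to 3′ on the gene's own strand, with matches in capitals. The CXCL1 window is chr4:73869143-73869392 on the plus strand, the CXCL2 window is chr4:74099196-74099445 on the minus strand, and the CXCL10 window is chr4:76023498-76023747 on the minus strand.
CXCL1: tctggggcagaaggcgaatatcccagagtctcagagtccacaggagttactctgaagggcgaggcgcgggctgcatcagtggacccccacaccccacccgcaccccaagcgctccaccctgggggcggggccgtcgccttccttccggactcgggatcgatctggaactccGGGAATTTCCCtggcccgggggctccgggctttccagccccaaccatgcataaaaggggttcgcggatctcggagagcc
CXCL2: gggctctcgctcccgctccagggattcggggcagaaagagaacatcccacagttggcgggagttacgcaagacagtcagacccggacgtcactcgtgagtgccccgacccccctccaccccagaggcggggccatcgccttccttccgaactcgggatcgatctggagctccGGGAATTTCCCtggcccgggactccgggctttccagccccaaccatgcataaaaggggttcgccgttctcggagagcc
CXCL10: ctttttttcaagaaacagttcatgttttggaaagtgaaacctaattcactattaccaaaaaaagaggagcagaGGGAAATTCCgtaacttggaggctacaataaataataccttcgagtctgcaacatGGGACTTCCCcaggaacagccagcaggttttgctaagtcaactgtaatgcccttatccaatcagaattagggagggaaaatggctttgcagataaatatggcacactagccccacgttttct

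In CXCL1 the match began 79 bases before the start on the gene's strand and overlapped a match on the opposite strand that ended 69 bases before it. In CXCL2 the matches ran between 78 and 68 bases before the start, and the longest run of bases shared by the CXCL1 and CXCL2 windows, 42 bases, lay at 57 to 16 bases before the start in both. CXCL10 held 2 separate sites, of which the one farther from the start lay 177 to 168 bases before it and the nearer one matched on both strands. The consensus, searched on both strands and by its name NF-kappaB, was found in 9.96% of the 35116 promoters in the table. CCL28, CXCL12 and CXCR4 had entries without a match. The letters CAAGTG, a binding site described for HMX homeodomain proteins, were in 0 of the 6 members' windows and in 9.50% of all promoters on either strand. A match is a description of letters and not a site of binding, and CCL2, CCL5, CXCL16 and CX3CL1 are named without a sequence.

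The deposited TPM, a transcript abundance, is normalised for gene length and adds up to a fixed total in each library, so it can be compared between genes but carries no depth. Libraries held 21590 to 24901 genes above 0, mitochondrial transcripts took 4.47% to 33.8% of the TPM, and the 12 neuroblastoma markers were above 0 in all groups. HMX1 itself was at 1.24, 0.193 and 0.411 TPM in SKNAS Hmx1 and at 0, 0 and 0 TPM in SKNAS control, a difference that did not pass over all genes (adjusted p = 0.127, limma). It was at 13.2 ± 2.89 TPM in LAN-1 Hmx1 against 11.6 ± 0.413 TPM in LAN-1 control, and at 5.50 ± 0.861 TPM in KELLY Hmx1 against 5.70 ± 1.91 TPM in KELLY control (SD, n = 3), so in those lines the arms were not separated by the gene that names them. In tests, log2(TPM + 1) was fitted with limma over 18650 genes, those at 1 TPM or more in at least 3 libraries, and a gene was called changed at a Benjamini-Hochberg adjusted p under 0.05. The log2(TPM + 1) scale understates changes of low genes.

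The members that met this minimum were 6, namely CCL2, CXCL10, CXCL12, CXCL16, CX3CL1 and CXCR4. CXCL10 met it only through the SKNAS Hmx1 libraries and therefore had to be higher there. CCL28, CXCL1 and CXCL2 reached 1 TPM in at most 1 library and the row matched to CCL5 was listed at 0 in all 18, so these 4 are described by their values.

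CCL2 (ENSG00000108691, GRCh37 chromosome 17, 32582304 to 32584222, plus strand), the monocyte chemoattractant, had 253, 178 and 168 TPM in SKNAS Hmx1, against 3.18, 4.59 and 3.10 TPM in SKNAS control. The lowest Hmx1 library stood far above the highest control library, and the means of 199.5 ± 46.8 and 3.62 ± 0.840 TPM (SD, n = 3 each) differed 55.1-fold, or by 5.43 with a standard error (SE) of 0.21 on the log2(TPM + 1) scale. CCL2 ranked at place 636 of all genes by mean TPM in SKNAS Hmx1 and at place 12808 in SKNAS control. Of the summed TPM of the 10 members, CCL2 supplied 91.6% in SKNAS Hmx1 and 33.9% in SKNAS control. The members' sum was 218 ± 49.7 TPM in SKNAS Hmx1 and 10.7 ± 1.16 TPM in SKNAS control, and in LAN-1 and KELLY it was 13.7 to 34.0 TPM by group mean, most of it CXCR4.

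In the other lines CCL2 was low in both arms. LAN-1 Hmx1 had 0.162, 0 and 0 TPM against 0.140, 0 and 0 TPM in LAN-1 control. KELLY Hmx1 had 0.348, 0.207 and 0.522 TPM against 0.301, 1.23 and 0.853 TPM in KELLY control. The arms overlapped in both lines, and the log2 difference was 0.01 in LAN-1 (adjusted p = 1) and -0.37 in KELLY (SE 0.21, adjusted p = 0.826, limma). The order of the group means was SKNAS Hmx1, SKNAS control, KELLY control, KELLY Hmx1 and then both LAN-1 arms, in which the 2 KELLY arms overlapped each other, as did the 2 LAN-1 arms.

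**Figure D1:**
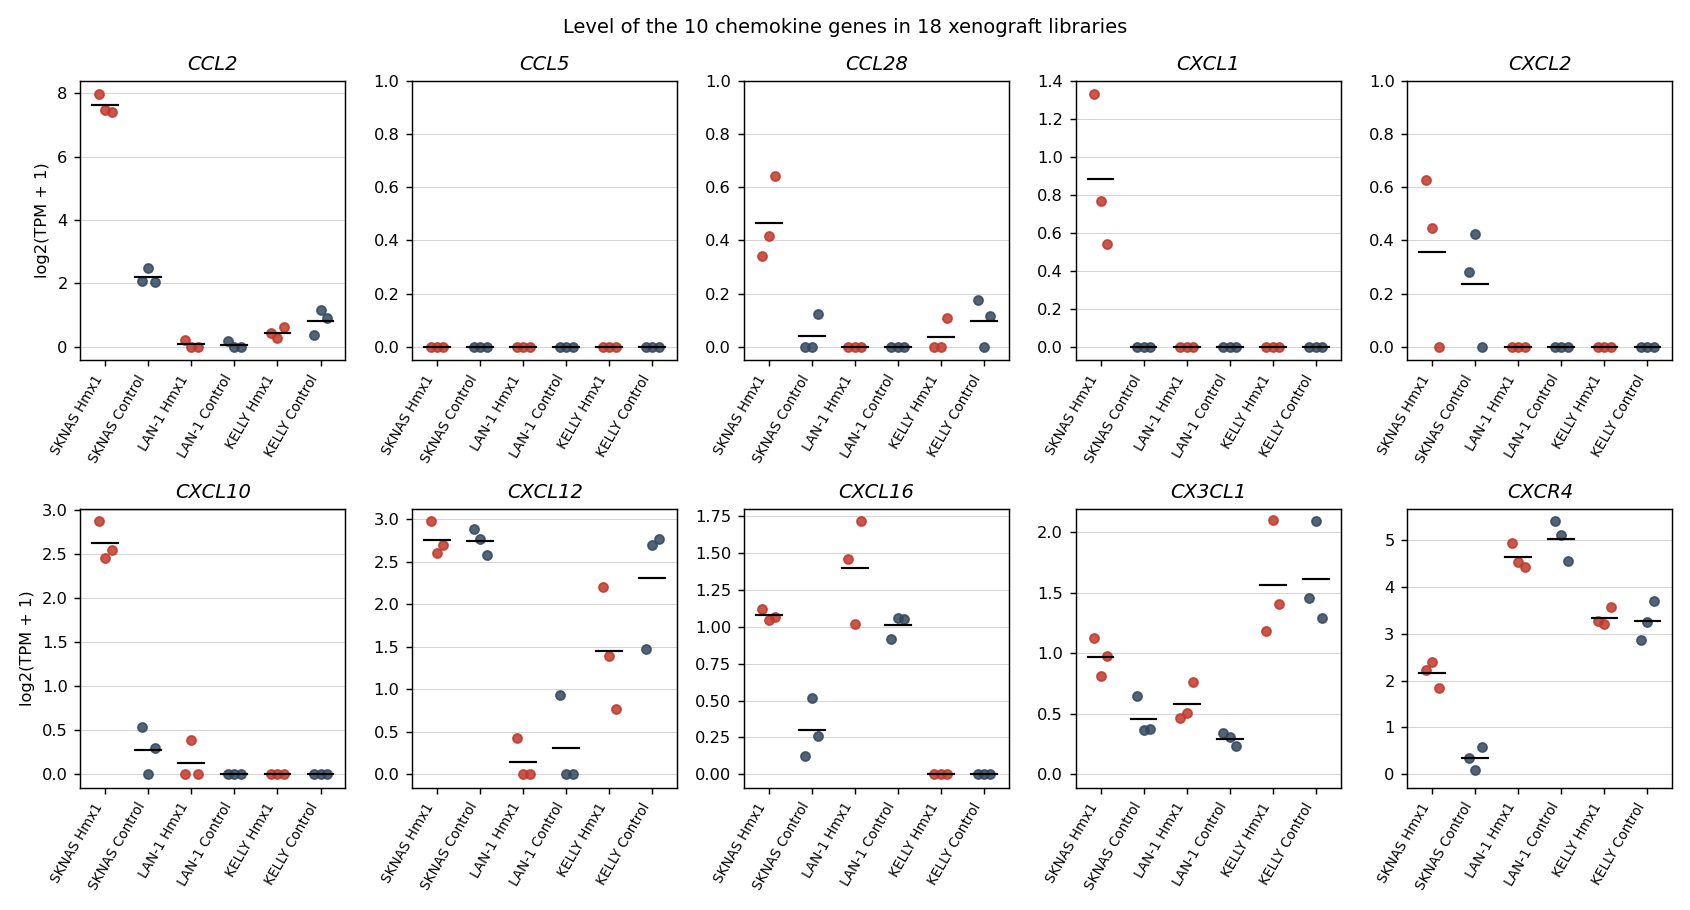
Level of each of the 10 genes as log2(TPM + 1), vertical axis, in each of the 18 libraries (points; red Hmx1, dark blue control), with the mean of each group of 3 as a bar and a separate scale per gene. CCL2 stands highest in SKNAS Hmx1, CXCR4 stands highest in the LAN-1 arms, and the row matched to CCL5 is listed at 0 throughout.

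CXCL10 (ENSG00000169245, GRCh37 chromosome 4, 76942273 to 76944650, minus strand), a ligand induced by interferon in many cells, had 6.29, 4.49 and 4.81 TPM in SKNAS Hmx1, against 0.453, 0 and 0.229 TPM in SKNAS control. All 3 Hmx1 libraries were above all 3 control libraries, with a log2 difference of 2.34 (SE 0.15). Outside SKNAS it was above 0 in 1 library, a LAN-1 Hmx1 library at 0.311 TPM, and was listed at 0 in the other LAN-1 and all KELLY libraries.

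CXCL1 (ENSG00000163739, GRCh37 chromosome 4, 74735110 to 74736959, plus strand) had 1.52, 0.704 and 0.456 TPM in SKNAS Hmx1 and was listed at 0 in the other 15 libraries. Its relative CXCL2 (ENSG00000081041, chromosome 4, 74962752 to 74965010, minus strand) had 0.544, 0.363 and 0 TPM in SKNAS Hmx1, against 0.214, 0.340 and 0 TPM in SKNAS control, and was listed at 0 in all LAN-1 and KELLY libraries. The CXCL1 groups were apart in SKNAS, while the CXCL2 groups overlapped. The transcripts of these genes share sequence, since 9.29% of the 31-base words of CXCL1 occur in CXCL2 and 13.5% of those of CXCL2 occur in CXCL3, so reads may have been split among them and these low values are uncertain.

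CCL28 (ENSG00000151882, GRCh37 chromosome 5, 43376747 to 43412493, minus strand), a mucosal ligand of CCR10, had 0.267, 0.335 and 0.560 TPM in SKNAS Hmx1, against 0, 0 and 0.0885 TPM in SKNAS control. The SKNAS arms did not overlap, at levels under 1 TPM. It was listed at 0 in all LAN-1 libraries and reached at most 0.128 TPM in KELLY, where the arms overlapped. CCL5 is a T cell attractant. The row matched to it (ENSG00000271503) lies on an alternate patch of chromosome 17 and was listed at 0 in all 18 libraries. A row without a symbol at nearly the same positions of chromosome 17 was above 0 in SKNAS Hmx1 and is described further below.

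CXCL12 (ENSG00000107562, GRCh37 chromosome 10, 44793038 to 44881941, minus strand), the ligand of CXCR4 and in many tissues a stromal product, differed from CCL2 in that its SKNAS arms lay together. It had 6.85, 5.07 and 5.49 TPM in SKNAS Hmx1, against 6.40, 5.82 and 4.96 TPM in SKNAS control, and the log2 difference was 0.01 (SE 0.36). KELLY Hmx1 had 3.59, 1.62 and 0.703 TPM against 1.76, 5.46 and 5.80 TPM in KELLY control, which overlapped (log2 difference -0.85, SE 0.36, adjusted p = 0.671, limma). In LAN-1 it was above 0 in 1 library of each arm, at 0.341 TPM in Hmx1 and at 0.910 TPM in control.

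CXCL16 (ENSG00000161921, GRCh37 chromosome 17, 4636821 to 4643217, minus strand), a membrane-bound ligand of CXCR6, had 1.17, 1.07 and 1.10 TPM in SKNAS Hmx1, against 0.0900, 0.433 and 0.199 TPM in SKNAS control. The SKNAS arms did not overlap, and the means of 1.11 ± 0.0522 and 0.241 ± 0.175 TPM differed 4.62-fold (log2 difference 0.78, SE 0.16). LAN-1 Hmx1 had 1.75, 1.03 and 2.28 TPM against 0.889, 1.09 and 1.07 TPM in LAN-1 control, with overlap and no call (log2 difference 0.39, SE 0.16, adjusted p = 0.551, limma). CXCL16 was listed at 0 in all 6 KELLY libraries.

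CX3CL1 (ENSG00000006210, GRCh37 chromosome 16, 57406370 to 57418960, plus strand), known as fractalkine, had 1.18, 0.754 and 0.970 TPM in SKNAS Hmx1, against 0.563, 0.287 and 0.296 TPM in SKNAS control. LAN-1 Hmx1 had 0.384, 0.420 and 0.700 TPM against 0.270, 0.235 and 0.178 TPM in LAN-1 control. In both lines the lowest Hmx1 library was above the highest control library. The log2 difference was 0.51 in SKNAS (SE 0.22) and 0.28 in LAN-1 (SE 0.22, adjusted p = 0.966, limma), and 6.34% of all genes tested had LAN-1 Hmx1 libraries wholly above control. KELLY, the line with the highest level, had 1.27, 3.29 and 1.64 TPM in Hmx1 and 1.75, 3.26 and 1.44 TPM in control, which overlapped (log2 difference -0.05, adjusted p = 1, limma).

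CXCR4 (ENSG00000121966, GRCh37 chromosome 2, 136871919 to 136875735, minus strand), the receptor of CXCL12, was highest in LAN-1. LAN-1 Hmx1 had 29.6, 22.1 and 20.5 TPM against 41.4, 33.3 and 22.5 TPM in LAN-1 control, and KELLY Hmx1 had 8.62, 8.25 and 10.8 TPM against 6.27, 8.53 and 12.01 TPM in KELLY control. The arms overlapped in both lines, with log2 differences of -0.39 in LAN-1 (SE 0.25, adjusted p = 0.914) and 0.07 in KELLY (adjusted p = 1, limma). SKNAS Hmx1 had 3.71, 4.30 and 2.60 TPM against 0.275, 0.0731 and 0.494 TPM in SKNAS control. Here the arms were apart, and the means of 3.54 ± 0.864 and 0.281 ± 0.211 TPM differed 12.6-fold (log2 difference 1.82, SE 0.25), which left SKNAS Hmx1 below every LAN-1 and KELLY library.

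Within SKNAS, where the members' choice rests on the same contrast and nothing can be read from the count, 4 of the 6 tested members were past the threshold and all 4 were higher in Hmx1 (CCL2, CXCL10, CXCL16 and CXCR4). Over all genes tested 8.76% were past it, 4.96% as higher, and 14.8% had every SKNAS Hmx1 library above every control library. In LAN-1, 0 of 6 passed, beside 0.45% of all genes, or 84 genes by limma and 1341 at an unadjusted p under 0.05. In KELLY, 0 of 6 passed, beside 0.0912% of all genes, or 17 genes by limma and 1277 at an unadjusted p under 0.05. CXCL10 and CXCL16 were listed at 0 in all KELLY libraries, so they could not pass there and enter the KELLY median below as 0. In LAN-1, CXCL10 was above 0 in only 1 library. Leaving out 1 library gave 53 to 99 genes in LAN-1 and 15 to 49 in KELLY, with 0 members each time. The median log2 difference of the 6 was 0.07 in LAN-1 and -0.02 in KELLY, beside -0.05 and 0.02 over all genes tested. The Hmx1 effects of CCL2, CXCL10 and CXCR4 were larger in SKNAS than in either other line, past the threshold beside 4.99% of genes for SKNAS minus LAN-1 and 4.85% for SKNAS minus KELLY, which is again a description. Between LAN-1 and KELLY 0 of 6 effects differed by limma, beside 0.209% of genes. With so few genes called in LAN-1 and KELLY, a member that did not pass is not shown to be the same in both arms.

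**Figure D2:**
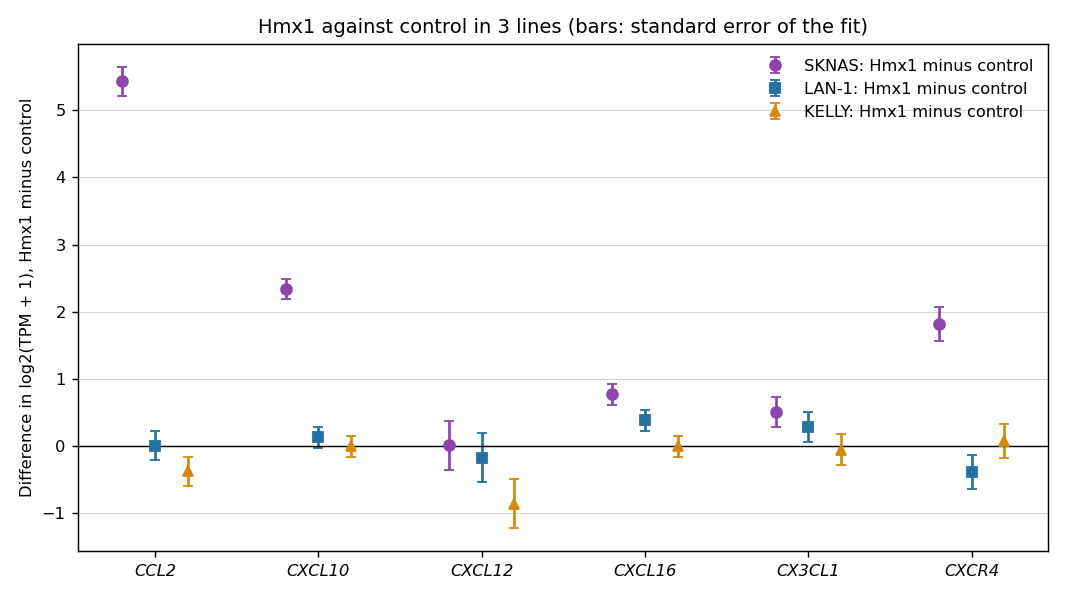
Difference in log2(TPM + 1), Hmx1 minus control, vertical axis, for the 6 tested members in SKNAS (circles), LAN-1 (squares) and KELLY (triangles), with bars of 1 standard error of the fit over 3 libraries per arm. CCL2 stands at 5.43 in SKNAS, 0.01 in LAN-1 and -0.37 in KELLY.

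The control arms compare the lines without the Hmx1 label. Of the 6 tested members, SKNAS control against LAN-1 control called 4, with 2 higher and 2 lower, beside 52% of all genes tested. SKNAS control against KELLY control called 3, with 1 higher and 2 lower, beside 65.7%, and LAN-1 control against KELLY control called 5, with 2 higher and 3 lower, beside 51.8%. A difference between lines was thus common among all genes, and the members' counts are read no further. The median log2 difference of all genes was 0.18, 0.54 and 0.34 in the 3 comparisons and 0.07, 0.02 and -0.03 after median-ratio scaling, a shift that is given here beside the values.

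CXCR4 had the largest control difference among the members. It was at 0.281 ± 0.211 TPM in SKNAS control, 32.4 ± 9.47 TPM in LAN-1 control and 8.94 ± 2.89 TPM in KELLY control (SD, n = 3), and no libraries of different lines overlapped. The log2 difference was -4.67 for SKNAS minus LAN-1 (SE 0.25, adjusted p = 4.76e-11), -2.93 for SKNAS minus KELLY (adjusted p = 2.54e-08) and 1.75 for LAN-1 minus KELLY (adjusted p = 2.21e-05, limma), and after median-ratio scaling it was -4.59, -3.32 and 1.27. CCL2 was higher in SKNAS control than in LAN-1 control (log2 difference 2.13, SE 0.21, adjusted p = 1.8e-07; 1.92 after median-ratio scaling). It was also higher in SKNAS control than in KELLY control (log2 difference 1.38, adjusted p = 2.39e-05; 1.04 after that scaling) and lower in LAN-1 control than in KELLY control (-0.75, adjusted p = 0.00748, limma). Among the control arms SKNAS therefore had the most CCL2.

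CXCL12 was higher in SKNAS control, at 5.73 ± 0.721 TPM, than in LAN-1 control, where 2 of 3 libraries were at 0 (log2 difference 2.43, SE 0.36, adjusted p = 2.07e-05). It was lower in LAN-1 control than in KELLY control, at 4.34 ± 2.24 TPM (log2 difference -2.0, adjusted p = 0.000195, limma). Between SKNAS control and KELLY control it overlapped (log2 difference 0.44, adjusted p = 0.297, and -0.08 after median-ratio scaling). CXCL16 was lower in SKNAS control than in LAN-1 control (log2 difference -0.71, SE 0.16, adjusted p = 0.00102) and higher in LAN-1 control, at 1.02 ± 0.111 TPM, than in KELLY control, where it was listed at 0 (1.01, adjusted p = 4.28e-05, limma). CX3CL1 was lower in SKNAS control than in KELLY control (log2 difference -1.15, SE 0.22, adjusted p = 0.000253) and lower in LAN-1 control than in KELLY control (-1.32, adjusted p = 0.000114, limma). CXCL10 passed in none of the 3 control comparisons by limma, at an adjusted p of 0.122 to 1. It was listed at 0 in all LAN-1 and KELLY control libraries and in SKNAS control replicate 2. Without that SKNAS library CXCL10 was called as higher in SKNAS control than in LAN-1 control (log2 difference 0.42, adjusted p = 0.0387, limma). The same held against KELLY control (adjusted p = 0.0297, limma). Leaving that library out removed the overlap, so these calls are read no further.

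Several receptors that the ligands act on were scarce in the same libraries, while those of CXCL12 and CCL28 were measured. These are rows of human genes, so receptors on cells of the host mice are not covered by them. CCR2, the receptor of CCL2, CXCR2, the receptor of CXCL1 and CXCL2, and CXCR3, the receptor of CXCL10, were listed at 0 in all 18 libraries. CX3CR1, the receptor of CX3CL1, was above 0 in 2 libraries and reached 0.0560 TPM, and CXCR6, the receptor of CXCL16, reached 0.0221 TPM in 1 library. CCR10, the receptor of CCL28, was above 0 in all 18, at 1.09 ± 0.490 TPM in SKNAS Hmx1 against 1.39 ± 0.224 TPM in SKNAS control, and at most 3.69 TPM in any library. ACKR3, the scavenging receptor of CXCL12, had 1.87, 1.10 and 1.19 TPM in SKNAS Hmx1 against 0.198, 0.313 and 0.136 TPM in SKNAS control. The arms were apart, and ACKR3 rose by a log2 difference of 0.96 (SE 0.18, adjusted p = 0.0015, limma). Over the list of 22 other chemokine receptors, 11 were listed at 0 in all libraries and 2 met the minimum for testing. ACKR3 was the 1 called in SKNAS, and 0 were called in LAN-1 and 0 in KELLY. Of all genes tested, 8.76% were called in SKNAS, 0.45% in LAN-1 and 0.0912% in KELLY. With 2 genes tested, these counts are read no further.

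Of 37 other chemokine ligands on a list chosen with earlier results known, 28 were matched by symbol. CCL3, CCL3L3, CCL4, CCL4L2, CCL14, CCL15, CCL16, CCL18 and CCL23 were not matched, so their levels are not covered. Of the 28, 9 were listed at 0 in all libraries and 4 were tested, 2 of which met the minimum without the SKNAS Hmx1 libraries. Of those 2, 0 passed by limma in SKNAS Hmx1 against control, beside 8.76% of all genes tested. Of the 4, 0 were called in LAN-1 and in KELLY, beside 0.45% and 0.0912% of all genes tested. CXCL6, another CXCR2 ligand, had 4.18, 2.34 and 3.04 TPM in SKNAS Hmx1 against 0, 0.0794 and 0 TPM in SKNAS control. It was listed at 0 in all LAN-1 and KELLY libraries. Its log2 difference of 2.01 (SE 0.13) is a description, since only the SKNAS Hmx1 libraries brought it over the minimum.

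CCL2 and CXCL1 lie in separate clusters of chemokine genes. Within 250 kb of the start of CCL2 the files list 16 genes, 6 of them protein-coding, and CCL2 was the only coding gene of the 6 to reach 1 TPM. CCL7, its neighbour and a related monocyte attractant, had 0.633, 0 and 0.142 TPM in SKNAS Hmx1 and was listed at 0 in the other libraries. CCL8 and CCL1 were listed at 0 in all 18, and CCL11 and CCL13 averaged 0.0341 and 0.0516 TPM in SKNAS Hmx1 and 0 in SKNAS control. No other coding gene of the window averaged more than the 0.258 TPM of CCL7 in SKNAS Hmx1.

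Within 250 kb of the start of CXCL1 the files list 18 genes, 10 of them protein-coding, of which 4 reached 1 TPM. Besides CXCL1 and CXCL6, the neutrophil attractant CXCL5 had 0.492, 0.416 and 0.803 TPM in SKNAS Hmx1 against 0, 0 and 0.0529 TPM in SKNAS control, which did not overlap but was too low to be tested. CXCL8, the best known neutrophil attractant, had 1.37, 0.587 and 1.02 TPM in SKNAS Hmx1 against 0.626, 1.04 and 0.314 TPM in SKNAS control, which overlapped. In LAN-1 it had 0.441, 0.506 and 1.16 TPM in Hmx1 against 0, 0.133 and 0 TPM in control. Those arms did not overlap, as for 6.34% of all genes tested in that direction, and CXCL8 did not pass (log2 difference 0.68, adjusted p = 0.155, limma). MTHFD2L, a gene of mitochondrial folate metabolism in the same window, was at 26.9 ± 1.66 TPM in SKNAS Hmx1 and 30.9 ± 3.11 TPM in SKNAS control.

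**Figure D3:**
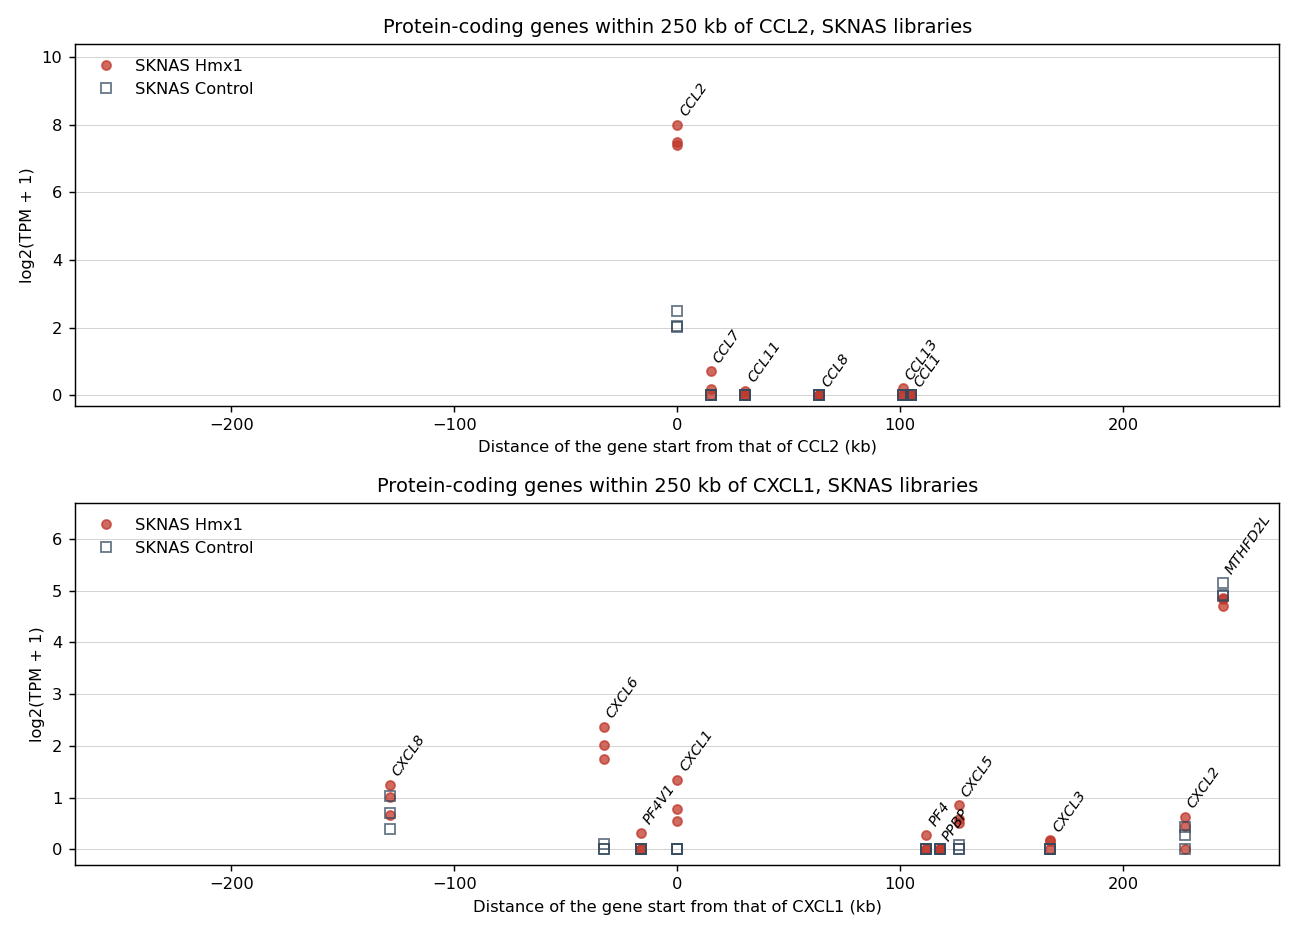
Level as log2(TPM + 1), vertical axis, of the protein-coding genes within 250 kb of CCL2 (upper panel) and of CXCL1 (lower panel) in the 3 SKNAS Hmx1 (filled circles) and 3 SKNAS control (open squares) libraries, against the distance of the gene start in kb. In the upper panel CCL2 stands alone, and in the lower panel CXCL6, CXCL1 and CXCL5 lie higher in Hmx1.

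Genes of the pathways that act on chemokine genes were followed with lists that were also chosen with earlier results known. Counts are over the genes that met the minimum without the SKNAS Hmx1 libraries, since any other gene was tested only because those libraries were counted. Of 17 such NF-kappaB subunits and feedback genes, 3 rose in SKNAS Hmx1, 1 fell and 13 did not pass, with a median log2 difference of 0.28. Over all 18650 genes tested the median was 0 and 8.76% were called. That wider set, also used for the lists below, includes genes that needed the SKNAS Hmx1 libraries to be tested. ICAM1, an adhesion molecule for leukocytes, did not meet the minimum without the SKNAS Hmx1 libraries. It had 6.83, 4.83 and 5.29 TPM in SKNAS Hmx1 against 0.943, 1.40 and 1.29 TPM in SKNAS control (log2 difference 1.58, SE 0.13, not used as a test). RELB, an NF-kappaB subunit, had 14.7, 6.19 and 9.13 TPM in SKNAS Hmx1 against 3.07, 2.70 and 3.04 TPM in SKNAS control (log2 difference 1.41, SE 0.25, adjusted p = 0.000878, limma). Neither gene's arms overlapped. The early response gene IER3 (log2 difference 0.96) and TNFAIP2 (0.93) were the other risers, and TRAF1, an adaptor of TNF receptors, fell by 0.77 on the log2 scale. The apoptosis inhibitor BIRC3 met the minimum only through SKNAS Hmx1, and its log2 difference was 0.99 (SE 0.15, not used as a test).

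Of 8 inflammatory cytokines and their receptors that met the minimum without the SKNAS Hmx1 libraries, 1 rose in SKNAS Hmx1, 1 fell and 6 did not pass. Their median log2 difference was -0.02, and 8.76% of all genes tested were called. TNF, a cytokine that activates NF-kappaB, had 4.55, 2.96 and 1.85 TPM in SKNAS Hmx1 against 0, 0 and 0.0792 TPM in SKNAS control (log2 difference 1.95, SE 0.23). LTB, the neighbouring lymphotoxin gene, had 4.08, 1.60 and 2.17 TPM in SKNAS Hmx1 against 0.421, 0 and 0 TPM in SKNAS control (log2 difference 1.63, SE 0.20). Both were apart between arms but did not meet the minimum without the SKNAS Hmx1 libraries, so their values are a description. CSF1, a growth factor of macrophages, rose to 2.75 ± 0.181 TPM in SKNAS Hmx1 against 1.07 ± 0.259 TPM in SKNAS control (log2 difference 0.87, adjusted p = 0.0337, limma), a call that was lost in 6 of 14 alternative settings. OSMR, the oncostatin M receptor, fell by 0.44 on the log2 scale and lost its call in 7 of 14.

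Of 15 interferon receptors, STAT and IRF genes counted in the same way, 0 rose and 0 fell in SKNAS Hmx1 by limma, beside 8.76% of all genes called. Their median log2 difference was -0.03. Of 8 genes of chemokine shedding, cleavage and presentation, 0 rose and 1 fell, the heparan sulphate proteoglycan SDC2, by 0.81 on the log2 scale (adjusted p = 0.0264, limma; call lost in 5 of 14 settings). In LAN-1 and KELLY 0 genes of these 4 lists were called, beside 0.45% and 0.0912% of all genes tested. With shares that low, the absence of calls is read no further.

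**Figure D4:**
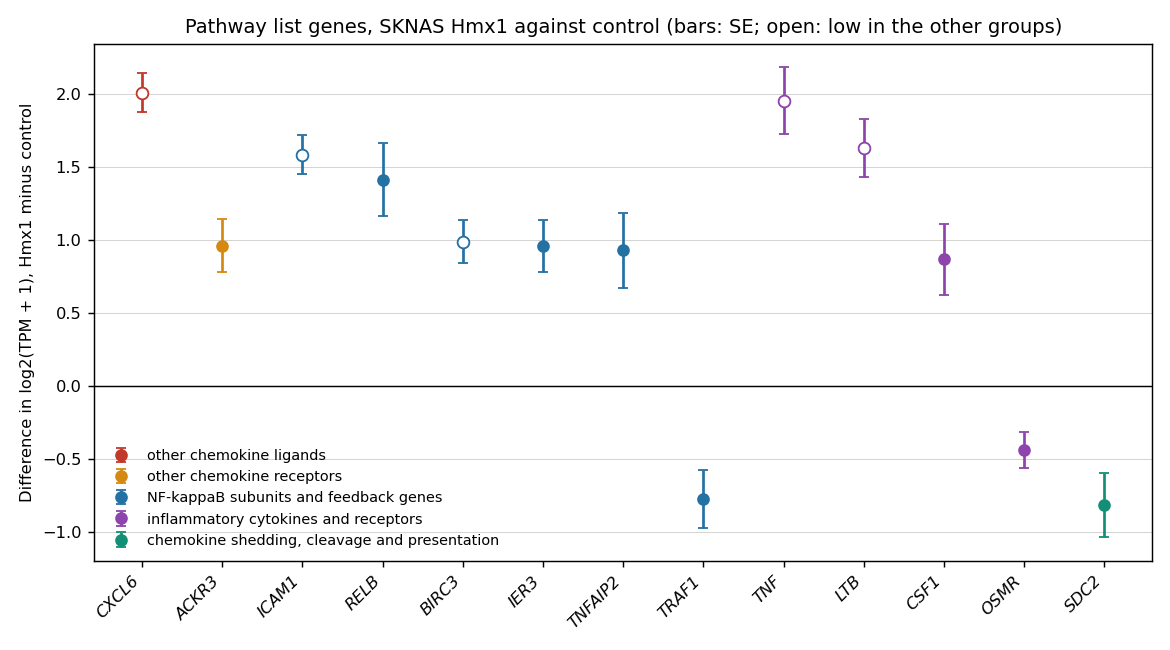
Difference in log2(TPM + 1), SKNAS Hmx1 minus SKNAS control, vertical axis, for the genes of 5 pathway lists at an adjusted p under 0.05 (points, coloured by list; bars are 1 standard error). Open points, CXCL6 at 2.01, TNF at 1.95 and LTB at 1.63 among them, did not meet the minimum for testing without the SKNAS Hmx1 libraries. TRAF1, OSMR and SDC2 lie below 0.

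Tumours hold cells of several kinds, and in bulk RNA fewer cells of a type and less RNA per cell cannot be told apart. In tumours grown in mice, leukocytes, endothelium and fibroblasts of the host are mouse cells, which rows of human genes do not count. The marker values below are therefore levels of human transcripts and not amounts of these host cells. The 17 leukocyte and macrophage markers summed to 190 to 287 TPM in SKNAS Hmx1 against 77.9 to 105 TPM in SKNAS control, nearly all of it PTPRC, which encodes CD45. PTPRC had 187, 285 and 220 TPM in SKNAS Hmx1 against 102, 75.7 and 97.9 TPM in SKNAS control and was listed at 0 in all LAN-1 and KELLY libraries (SKNAS log2 difference 1.31, adjusted p = 3.3e-05, limma). Without PTPRC the other 16 markers summed to 1.02 to 2.52 TPM in SKNAS Hmx1 against 2.19 to 3.24 TPM in SKNAS control. CD3E, FCGR3A, C1QB and S100A8, which mark T cells, natural killer cells and monocytes, macrophages and neutrophils, were listed at 0 in all 18 libraries, and 9 of 17 markers in SKNAS Hmx1 and 10 of 17 in SKNAS control were at 0. CD14, a monocyte marker, was at 0.523 ± 0.242 TPM in SKNAS Hmx1 against 1.34 ± 0.283 TPM in SKNAS control. It met the minimum only through the SKNAS control libraries and therefore had to be lower in Hmx1, so its values are a description.

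Fibroblast markers, 11 in all, summed to 829 to 928 TPM in SKNAS Hmx1 against 1166 to 1366 TPM in SKNAS control, and of 10 tested in that contrast 0 rose and 3 fell, beside 8.76% of all genes called. The fallers were LUM, whose call was lost in 1 of 14 alternative settings, PDGFRA, lost in 4 of 14, and DPT, lost in 6 of 13. DPT reached 1 TPM in SKNAS libraries only. The fibroblast marker sums were far lower in the other lines, at 17.0 to 64.7 TPM in LAN-1 Hmx1 against 23.8 to 35.9 TPM in LAN-1 control, and at 57.9 to 137 TPM in KELLY Hmx1 against 103 to 188 TPM in KELLY control. The 9 endothelium markers summed to 7.39 to 10.6 TPM in SKNAS Hmx1 and 7.29 to 10.3 TPM in SKNAS control. Within them ENG fell, to 1.09 ± 0.211 TPM in SKNAS Hmx1 against 3.78 ± 0.625 TPM in SKNAS control (log2 difference -1.19, adjusted p = 0.000277, limma). TEK, which did not meet the minimum without the SKNAS Hmx1 libraries, was at 3.22 ± 0.333 TPM in SKNAS Hmx1 against 1.07 ± 0.173 TPM in SKNAS control. Of the 12 neuroblastoma markers, TH, the rate-limiting enzyme of catecholamine synthesis, fell to 0.107 ± 0.0958 TPM in SKNAS Hmx1 against 2.88 ± 0.286 TPM in SKNAS control (log2 difference -1.81, adjusted p = 2.9e-05, limma). CHGA and DDC rose, by log2 differences of 0.89 and 0.91, with calls lost in 1 and in 6 of 14 alternative settings, and 9 did not pass. Mouse reads, if any were assigned to human genes, would enter these sums, and the part of other cell types in the members' levels was not tested.

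The profile of CCL2 over the 18 libraries was compared with that of every tested gene as the root mean square difference of centred log2(TPM + 1), for which the median gene was at 2.60. CCL2 itself chose this pattern, so the likeness is a description, and the gene ranked nearest is not reported here. The next were a processed pseudogene, ENSG00000218499 (0.99), the complement gene C7 (1.09), the natriuretic peptide gene NPPA (1.11) and SRGN, which encodes a proteoglycan of secretory granules (1.16). C7 was at 45.9 ± 10.4 TPM in SKNAS Hmx1 and 11.6 ± 1.81 TPM in SKNAS control, NPPA at 28.6 ± 6.92 and 5.82 ± 0.522 TPM, and SRGN at 66.9 ± 14.1 and 19.4 ± 2.20 TPM. In LAN-1 and KELLY the means of all 4 genes lay below 1 TPM.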

How the data were processed

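Each library's deposited gene table holds 3 measures per the file headers: TPM, which the authors normalised to a fixed total, FPKM, used here as an alternative, and a Coverage signal, not used in tests. The tools bcl2fastq, STAR and FastQC and both GRCh37 and GRCh38.p12 appear, without roles, per the submitters' processing notes. The last gene of chromosome 1 ended at 249231242, beyond 248937099 in RefSeq GRCh38, so coordinates were read as GRCh37. The tool that made the tables, its annotation, the use of strand and any removal of mouse reads were not given in the sources used here. TPM keeps no depth, so no counting interval is given. Symbols were matched by identifier for 52181 of 63677 rows.

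Groups came from titles. log2(TPM + 1) was fitted with limma 3.58.1 in R 4.3.3, with 6 group means over all 18 libraries (12 residual and 4.95 prior degrees of freedom), after a test on simulated data. Tables and figures used Python 3.11.15, pandas 2.3.3, numpy 2.4.6 and matplotlib 3.10.9. Alternatives were the pseudocount, the filter, FPKM, scaling, mitochondrial transcripts, the variance trend, the libraries fitted and leaving out each library. Members and lists were chosen with earlier results of these data known. Named genes were the members, at most 4 called genes per list and comparison with the largest change, genes within 250 kb of CCL2 or CXCL1, the 5 profiles nearest to CCL2, and HMX1, HMX2 and MYCN. Genes outside this rule (TNFAIP2 and TRAF1 in SKNAS Hmx1 against control, the members' receptors and markers at 0) were named after their values were seen. The calls of TNFAIP2 and TRAF1 in that contrast were not followed through the alternatives. Some items are not reported here.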

Additional observations from a re-analysis of the deposited data

Results flagged for a closer look

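The Hmx1 effects of 3 members differed between lines. The effect on CCL2 was larger in SKNAS than in LAN-1 by 5.42 (SE 0.30) and larger than in KELLY by 5.80 on the log2(TPM + 1) scale. For CXCL10 the corresponding differences were 2.21 and 2.34, and for CXCR4 they were 2.21 and 1.75. All 6 were past the threshold over all genes, beside 4.99% of genes for SKNAS minus LAN-1 and 4.85% for SKNAS minus KELLY, but they contain the SKNAS contrast that the choice of members used and are given as a description. CXCL16 was not past it, at 0.39 and 0.78, and between LAN-1 and KELLY 0 of the 6 tested members differed by limma, beside 0.209% of genes.

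A row without a symbol in the references used, ENSG00000161570 on GRCh37 chromosome 17 at 34198495 to 34207797, was above 0 in SKNAS Hmx1 only. It had 0.168, 0.176 and 0.492 TPM in the 3 SKNAS Hmx1 libraries and was listed at 0 in the other 15, the SKNAS control libraries included. Its positions are close to those of the CCL5 row on the patch, 34198510 to 34207812, which was listed at 0 throughout. Both rows are on the minus strand. Since the row on the main chromosome was above 0 in SKNAS Hmx1, the zeros of the patch row do not show that CCL5 was absent there.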

How the results depend on the processing

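For CCL2, CXCL10, CXCL16 and CXCR4 in SKNAS, every alternative in which they were tested kept the direction, while CXCL12, near 0, ran between -0.09 and 0.09. On the log2 scale CCL2 in SKNAS Hmx1 against control was 5.74 with a pseudocount of 0.1 and 5.08 with FPKM, CXCL10 was 4.32 and 1.58, CXCL16 was 1.96 and 0.43, and CXCR4 was 3.40 and 1.18. With a minimum of 5 TPM in 3 libraries, SKNAS Hmx1 against control called 1028 genes and 2 members, because CXCL10 and CXCL16 were then not tested, and LAN-1 control against KELLY control called 3 members. A pseudocount of 0.1 called 5 members between SKNAS control and KELLY control, CXCL10 and CXCL16 being added, and also called CXCL10 between SKNAS control and LAN-1 control (adjusted p = 0.0461, limma). The count of genes called in LAN-1 was 127 with no filter, 45 with the minimum of 5 TPM, 137 with FPKM, 174 with median-ratio scaling, 27 with the 2 groups alone, and 53 to 99 when 1 library was left out (54 without control replicate 1, control replicate 2 or Hmx1 replicate 3, and 53 without Hmx1 replicate 2). In KELLY it was 49 with no filter, 10 with the minimum of 5 TPM, 32 with median-ratio scaling, 0 with the 2 groups alone, and 15 to 49 when 1 library was left out (29 without control replicate 1, 49 without control replicate 2 and 27 without Hmx1 replicate 1). Median-ratio scaling also moved the share of calls that were higher, to 55.2% against 38.1% in LAN-1, 34.4% against 52.9% in KELLY, 50.8% against 75.4% for SKNAS control minus KELLY control and 47.5% against 73.8% for LAN-1 control minus KELLY control. No member was called in LAN-1 or KELLY Hmx1 against control in any setting. Called results of genes that are no members (at most 4 per list and comparison, and the named neighbours in profile) were also followed through the alternatives. Of these, 104 kept their call in all settings that tested the gene, 17 lost it in at least 1 and 0 reversed. Some of these genes were not tested at the minimum of 5 TPM. No paired analysis was possible because the labels give no replicate numbers and those used here only name libraries. Members under 1 TPM are limited by an unknown depth.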

Other observations

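The same pathway lists were also set between the control arms, where the comparison is between lines. Of 19 tested NF-kappaB subunits and feedback genes, 9 were higher and 1 was lower in SKNAS control than in LAN-1 control, with a median log2 difference of 0.56 beside 0.18 over all genes tested. That is 52.6% of the list called, beside 52% of all genes. Against KELLY control 16 were higher and 0 lower in SKNAS control, or 84.2% beside 65.7% of all genes, with a median of 1.18 beside 0.54. After median-ratio scaling the median of all genes in that comparison was 0.02, and 50.8% of all calls were higher in place of 75.4%. VCAM1, an adhesion molecule for leukocytes, was at 60.2 ± 2.38 TPM in SKNAS control, against 0.243 ± 0.247 TPM in LAN-1 control and 0.898 ± 0.757 TPM in KELLY control (SD, n = 3). IER3 was at 23.7 ± 0.677 TPM in SKNAS control, against 1.84 ± 0.192 TPM in LAN-1 control and 0.512 ± 0.191 TPM in KELLY control. Of 16 interferon receptors, STAT and IRF genes, 8 were higher and 1 was lower in SKNAS control than in LAN-1 control, and 13 were higher and 0 lower than in KELLY control, with medians of 0.71 and 0.94. These are 56.2% and 81.2% of the list, beside the same 52% and 65.7% of all genes. Fibroblast marker sums were also highest in SKNAS control, and their part in these differences was not tested.

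HMX2, a relative of HMX1, had 15.9, 21.6 and 16.5 TPM in SKNAS Hmx1 against 7.22, 5.53 and 9.47 TPM in SKNAS control, with no overlap (log2 difference 1.19, SE 0.22, adjusted p = 0.00163, limma). In LAN-1 it was at 11.8 ± 1.44 TPM in Hmx1 against 7.15 ± 2.53 TPM in control and did not pass, although the arms did not overlap (log2 difference 0.69, adjusted p = 0.324, limma). In KELLY it was at 0.143, 0.0771 and 0 TPM in Hmx1 against 0.164, 0.135 and 0 TPM in control, which overlapped.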
